A study of Homo sapiens with 5 samples.

Results

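This section describes DRIP-seq peaks at zinc finger genes of the ZNF series on human chromosome 19 in PC-9 cells. The members are the peaks of the 4 deposited lists that lie on chromosome 19 and are assigned to a protein-coding gene whose symbol starts with ZNF and a number. The rule gave 361 of 80323 peaks, assigned to 103 genes. RefSeq lists 250 protein-coding ZNF genes on chromosome 19 and 267 on other chromosomes. ZNF genes of those other chromosomes held 259 peaks in 110 genes and served for comparison.

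RNA:DNA hybrids were precipitated with the S9.6 antibody from sonicated DNA of PC-9, an established lung adenocarcinoma cell line. Both libraries labelled exp, taken as the FANCI knockdown that the design text names, were compared with both control libraries. The FANCI protein pairs with FANCD2 and takes part in repairing crosslinked DNA. All libraries come from the same cell line, the labels name neither a knockdown reagent nor how control cells were treated, and no RNA level of FANCI was analysed. A single input library, not precipitated with S9.6, provided 1 further read count for each peak.

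Most ZNF genes of chromosome 19 encode proteins with arrays of C2H2 zinc fingers, many of them behind a KRAB domain. A KRAB zinc finger protein binds DNA through its fingers, often within transposable elements, and recruits the corepressor TRIM28, which brings the histone H3 lysine 9 methyltransferase SETDB1 and other repressive enzymes. The genes arose by tandem duplication and stand in clusters of related copies, so reads from near-identical stretches of neighbouring genes may not be assigned with certainty.

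The DNA just upstream of some members with repeated downstream peak summits shows how alike neighbouring starts can be. The stretches below run from 150 bases before to 30 bases after the RefSeq start nearest the peaks (RefSeq, GRCh38.p14), 5′ to 3′ on the coding strand. They belong to the 5 genes with a peak summit within 2 kb downstream of a start in all 4 libraries, and to the 2 genes of the highest median GC skew among those with such a summit in 3. Capitals mark the GC box word GGGCGG and the word CCGGAAG, which holds an ETS factor core, on either strand. Their coordinates are chr19:52139909-52140088 (minus strand) for ZNF616, chr19:52735015-52735194 (minus) for ZNF611, chr19:52269437-52269616 (plus) for ZNF766, chr19:53159024-53159203 (minus) for ZNF347, chr19:52527518-52527697 (plus) for ZNF808, chr19:53132881-53133060 (minus) for ZNF415 and chr19:55580819-55580998 (minus) for ZNF579.
ZNF616: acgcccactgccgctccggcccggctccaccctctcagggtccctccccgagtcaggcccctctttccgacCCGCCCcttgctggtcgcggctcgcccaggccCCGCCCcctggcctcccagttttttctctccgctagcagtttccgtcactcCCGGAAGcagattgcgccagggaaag
ZNF611: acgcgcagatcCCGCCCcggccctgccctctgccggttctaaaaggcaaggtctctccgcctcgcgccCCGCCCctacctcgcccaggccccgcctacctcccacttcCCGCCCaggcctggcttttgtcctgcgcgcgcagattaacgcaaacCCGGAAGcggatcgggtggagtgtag
ZNF766: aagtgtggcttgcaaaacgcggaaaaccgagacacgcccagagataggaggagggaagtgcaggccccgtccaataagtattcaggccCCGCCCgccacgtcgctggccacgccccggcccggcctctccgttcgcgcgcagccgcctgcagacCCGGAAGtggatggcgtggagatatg
ZNF347: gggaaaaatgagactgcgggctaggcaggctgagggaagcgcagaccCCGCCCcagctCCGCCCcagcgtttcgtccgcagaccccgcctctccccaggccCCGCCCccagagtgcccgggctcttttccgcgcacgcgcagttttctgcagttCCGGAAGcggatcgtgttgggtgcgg
ZNF808: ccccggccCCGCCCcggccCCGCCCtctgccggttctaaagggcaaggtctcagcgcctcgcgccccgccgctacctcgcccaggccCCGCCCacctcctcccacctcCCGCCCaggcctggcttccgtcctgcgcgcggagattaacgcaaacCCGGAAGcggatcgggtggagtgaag
ZNF415: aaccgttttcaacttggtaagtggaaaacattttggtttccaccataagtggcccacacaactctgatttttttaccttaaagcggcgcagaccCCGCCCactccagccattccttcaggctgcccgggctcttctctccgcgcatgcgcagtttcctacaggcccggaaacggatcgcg
ZNF579: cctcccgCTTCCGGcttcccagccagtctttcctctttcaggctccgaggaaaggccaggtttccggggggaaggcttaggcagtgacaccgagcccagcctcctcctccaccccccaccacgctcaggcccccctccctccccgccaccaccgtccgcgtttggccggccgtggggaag
The word CCGGAAG began at base 5 after the start, counting the start as base 1, in ZNF616, ZNF611, ZNF766, ZNF347 and ZNF808. In ZNF611 and ZNF808 the last 60 printed bases were identical at 56 positions, without gaps. ZNF611 shared 40 of these 60 positions with ZNF347, 37 with ZNF766 and 35 with ZNF616. It shared 14 with ZNF415, of the same cluster, and 19 with ZNF579, which stands in another. Positions were compared at equal distance from each annotated start, so a related stretch that is shifted counts as unlike. Shifted alignments, which could apply to ZNF415, were not tried. On the coding strand between 20 bases before and 30 after the start, CCGGAAG was present in 23 of 51 promoter windows (45.1%) of the cluster that runs from ZNF175 to ZNF331. It was present there in 8 of 256 windows (3.12%) of other chromosome 19 ZNF genes, in 13 of 340 (3.82%) of ZNF genes elsewhere and in 620 of 35116 (1.77%) of all windows. Within the cluster it was present there in 12 of 27 windows of genes with a peak summit just downstream and in 11 of 24 windows of genes without. It began exactly at base 5 in 9 of the 27 windows (33.3%) and in 3 of the 24 (12.5%), and neither difference was tested. Base 5 was read from the 5 printed genes named above. All 5 have such a summit, so the contrast at base 5 is partly built in. Over the whole windows of 250 bases before to 50 after a start, either strand counted, GGGCGG was present in 66.7% of this cluster's windows. The share was 63.7% for other chromosome 19 ZNF genes, 56.2% for ZNF genes elsewhere and 45.0% for all windows. CCGGAAG was present in 58.8% of windows of the cluster. Its share was 36.7% for other chromosome 19 ZNF genes, 27.1% for ZNF genes elsewhere and 10.3% for all windows. The words were chosen because the printed starts share them, they may share bases with each other, and a match is a description of letters only.

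The lists held 16785 and 14354 peaks in the exp libraries and 25281 and 23903 in the control libraries. DRIP reads over these peaks summed to 801196 and 646455 in the exp libraries, against 1266127 and 1001453 in the control libraries. These sums depend on how much was called, and totals of whole libraries were not analysed. Separate cultures within a group are not stated in the labels, and a p-value therefore covers only the variation among these 4 libraries, part of which may be technical. With 2 libraries against 2, the smallest two-sided exact permutation p is 0.33.

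Fewer chromosome 19 ZNF peaks were listed in both exp libraries than in either control library, as were fewer peaks of the whole genome. Members numbered 68 and 65 peaks in the exp libraries and 100 and 128 in the control libraries, and the groups did not overlap. The mean was 66.5 ± 2.12 peaks in exp and 114.0 ± 19.8 in control (SD, n = 2 each), a ratio of 0.583 (exact permutation p = 0.33). The ratio over all peaks was 0.633, and over ZNF genes of other chromosomes it was 0.579. Peaks fell on 51 and 43 ZNF genes of chromosome 19 in the exp libraries, against 60 and 69 in the control libraries, a ratio of 0.729 (exact permutation p = 0.33). The same ratio was 0.658 for ZNF genes elsewhere and 0.651 for all protein-coding genes. As a share of all peaks in the list, members made up 0.405% and 0.453% in exp and 0.396% and 0.535% in control. These shares overlapped between the groups (ratio of means 0.921, exact permutation p = 1). With every list reduced to the same number of peaks, those of highest −log10 q, members numbered 63 and 65 in exp and 72 and 102 in control, which did not overlap (ratio 0.736, exact permutation p = 0.33, the smallest possible). Per ZNF peak on other chromosomes, the exp lists held 1.36 and 1.44 chromosome 19 ZNF peaks and the control lists 1.20 and 1.58. The ratio of these means was 1.01 (exact permutation p = 1). With every list reduced to the same number of peaks, this ratio to ZNF peaks elsewhere was 0.848.

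A larger share of ZNF genes had a peak on chromosome 19 than elsewhere in each of the 4 libraries. The share was 20% and 17.2% in the exp libraries and 24% and 27.2% in the control libraries for chromosome 19. For other chromosomes it was 13.5% and 14.2% in exp and 22.5% and 19.9% in control. The difference averaged 4.59 percentage points over the 4 libraries, and the exact sign-flip permutation test gave p = 0.12, the smallest it can give. Exp and control did not differ in it beyond their spread (exact permutation p = 1). Per Mb of summed gene length there were 9.24 and 8.83 peaks in exp and 13.6 and 17.4 in control on chromosome 19, against 3.54 and 3.19 in exp and 5.88 and 5.74 in control elsewhere.

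The peaks were concentrated in the distal end of the long arm. ZNF genes separated by no more than 500 kb were joined, which gave 20 clusters, 8 of them with 10 or more genes. In the cluster of 41 genes from ZNF175 to ZNF331 at 51571283 to 53580269 (GRCh38), 22 and 23 genes had a peak in the exp libraries and 25 and 28 in the control libraries. Of these 41 genes, 32 had a peak in at least 1 library and 16 in all 4. The cluster of 17 genes from ZNF628 to ZNF835 had 3 and 7 genes with a peak in exp against 12 and 8 in control. In the cluster of 43 genes from ZNF264 to ZNF446, 8 and 6 genes had one in exp against 11 and 9 in control. The cluster of 37 genes from ZNF101 to ZNF254, at 19.7 to 24.1 Mb beside the centromere, stood at the other end with 0 and 1 genes in exp and 0 and 0 in control. The 26 genes from ZNF565 to ZNF573 varied more between libraries of 1 group than between the groups, with 6 and 2 genes in exp and 3 and 11 in control.

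**Figure D1:**
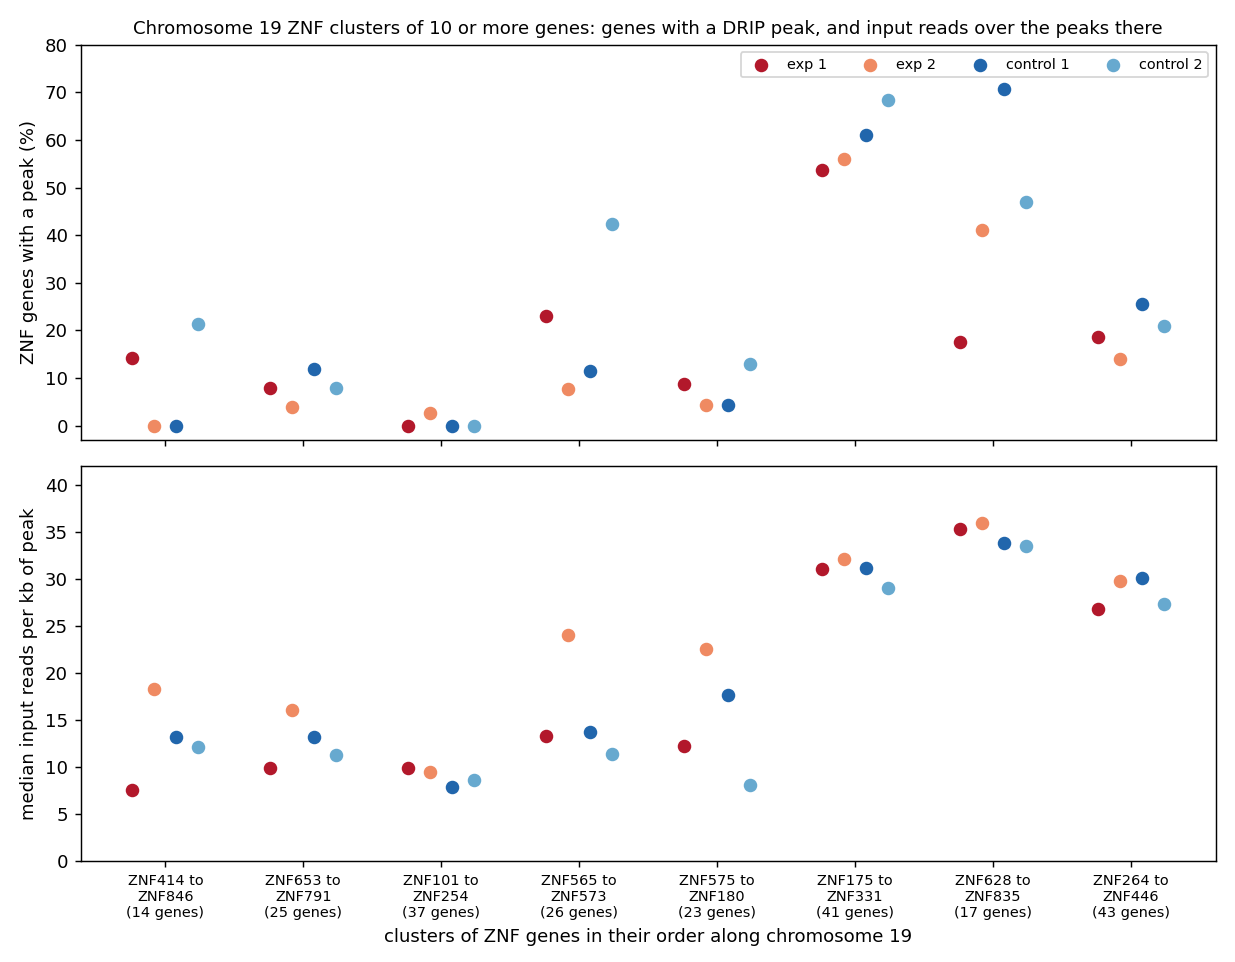
Upper panel: percent of RefSeq protein-coding ZNF genes with a peak (y axis) in each chromosome 19 cluster of 10 or more genes (x axis, in chromosomal order), 1 point per library. Lower panel: median input reads per kb over all peaks that lie in the same clusters. The 3 clusters at the right, beyond 51 Mb, have the most input reads, 26.8 to 36 per kb, and the cluster ZNF175 to ZNF331 has a peak at 53.7% to 68.3% of its genes.

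Beyond 51 Mb, 33 and 36 of 101 ZNF genes had a peak in the exp libraries and 48 and 45 in the control libraries. Before it, 17 and 7 of 149 had one in exp and 12 and 23 in control. That was 11.4% and 4.70% in exp and 8.05% and 15.4% in control, below the share of ZNF genes on other chromosomes in every library. The share was higher beyond 51 Mb by 30.2 percentage points on average, in 4 of 4 libraries (21.3 and 30.9 points in exp, 39.5 and 29.1 in control), with an exact sign-flip permutation p of 0.12. The border was placed after the positions of the peaks and the input reads had been seen, and other genes there had more peaks too. Of 159 protein-coding genes beyond 51 Mb that are no ZNF genes, 66 and 64 had a peak in exp and 89 and 92 in control. Before 51 Mb it was 240 and 175 of 1042 in exp and 370 and 338 in control. In both intervals the share of these other genes was above that of ZNF genes in every library.

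Reads of the input library moved with this location. Over member peaks beyond 51 Mb the median input was 30.7 and 30.9 reads per kb of peak in the exp lists and 29.9 and 29.1 in the control lists. Over member peaks before 51 Mb it was 12.0 and 14.8 in exp and 11.0 and 9.29 in control. Peaks of other coding genes beyond 51 Mb had 28.7 and 29.2 input reads per kb in exp and 30.8 and 28.5 in control. In bins of 1 Mb over all peaks, the median input lay between 20.7 and 34.6 reads per kb in the 8 bins from 51 Mb on and between 9.28 and 16.3 in the 23 bins from 28 to 50 Mb. DRIP reads per kb lay between 81.2 and 111 in the 8 distal bins and between 55.1 and 70.7 in the 23 others. The fold enrichment deposited by the authors did not move up with them: its median over member peaks beyond 51 Mb was 3.44 and 3.60 in exp and 3.87 and 3.62 in control, against 3.72 and 3.82 in exp and 3.83 and 3.87 in control before 51 Mb. The part of the input reads in the number of listed genes was not tested.

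Members lay mostly in gene bodies, as peaks of all protein-coding genes did, and more often than other ZNF genes just downstream of a start. The authors' classes put 91.2% and 78.5% of member peaks in gene bodies in exp and 81% and 83.6% in control, where a peak may hold several classes. Gene bodies held 91.2% and 90.0% of peaks of all protein-coding genes in exp and 86.0% and 89.0% in control. For other coding genes on chromosome 19 the share was 80.1% and 80.1% in exp and 76.3% and 79.9% in control. The difference from ZNF genes elsewhere averaged 2.15 points and changed sign between libraries (exact sign-flip permutation p = 0.375). RefSeq starts were matched for 89 of the 103 genes and 308 of the 361 peaks. Among peaks with a start, the summit lay within 2 kb downstream of one for 8 of 60 and 10 of 53 in exp and for 20 of 85 and 19 of 110 in control. For ZNF genes elsewhere these counts were 3 of 42 and 2 of 37 in exp and 7 of 59 and 3 of 60 in control. The share on chromosome 19 was higher by 6.19 and 13.5 points in exp and by 11.7 and 12.3 points in control, on average by 10.9 (exact sign-flip permutation p = 0.12). For other chromosome 19 coding genes beyond 51 Mb the share was 10.4% and 12.3% in exp and 16.8% and 11.2% in control. Member peaks before 51 Mb had 2 of 18 and 0 of 5 in exp and 2 of 12 and 0 of 28 in control. The window was chosen after the peaks had been seen.

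These downstream summits stood at a narrow distance. Of the 57 in all lists, 45 (78.9%) were 500 to 1250 bp from the start, against 2 of 15 (13.3%) for ZNF genes elsewhere and 418 of 1074 (38.9%) for all protein-coding genes. This range was set where the member summits are most frequent, so the contrast is partly built in and was not tested. The 57 summits came from 27 genes, so many are the same position seen in several libraries. Of them, 42 were in the cluster from ZNF175 to ZNF331, in 17 genes, at a median of 861 bp.

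**Figure D2:**
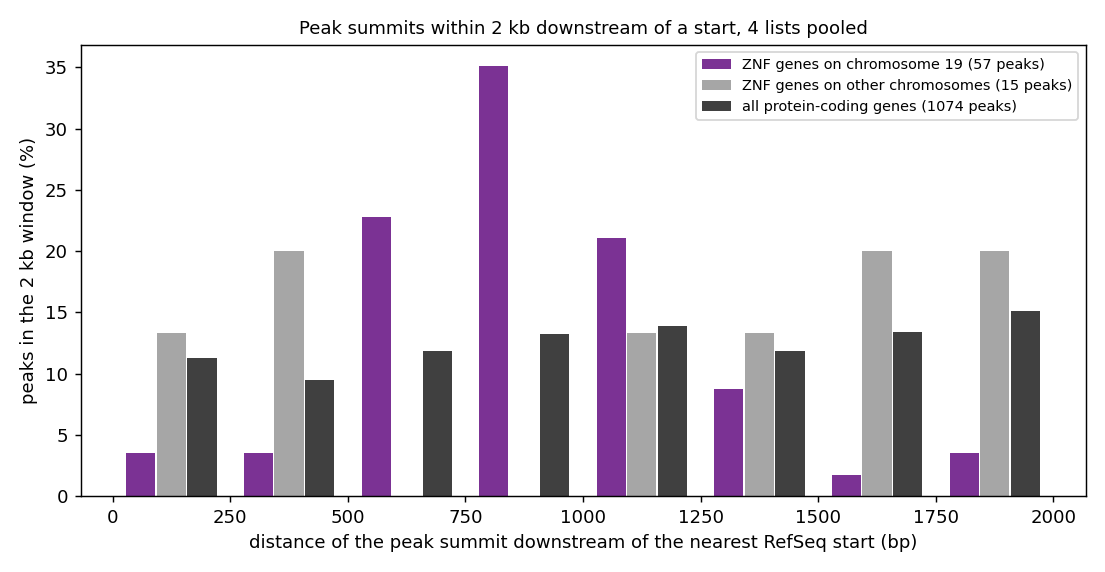
Percent of the peaks in the 2 kb window (y axis) by distance of the summit downstream of the nearest RefSeq start in bins of 250 bp (x axis), for the 4 lists pooled. Chromosome 19 ZNF peaks pile up at 750 to 1000 bp (35.1%), where ZNF genes of other chromosomes have 0 of 15 and all coding genes have 13.2%.

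The downstream peaks of the cluster were rich in G on the coding strand. GC skew, the surplus of G over C divided by their sum, was above 0.1 in 39 of these 42 peaks and below −0.1 in 0. The 42 peaks come from 17 genes, so the same sequence is counted in several libraries. Of the member peaks in this window outside the cluster, 4 of 15 were above 0.1. Over all coding genes it was 36 of 147 and 47 of 126 in exp and 230 of 486 and 112 of 315 in control. R-loops are known to form where the transcript is rich in G. Over all member peaks the median skew on the coding strand was 0.00 and 0.05 in exp and 0.14 and 0.00 in control, and its difference from ZNF genes elsewhere averaged 0.015 with both signs (exact sign-flip permutation p = 0.75). The printed stretches upstream lean the other way in 5 of the 6 cluster genes: the skew of the 180 bases was −0.31 in ZNF616, −0.25 in ZNF808, −0.24 in ZNF611, −0.22 in ZNF415, −0.06 in ZNF347 and 0 in ZNF766.

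**Figure D3:**
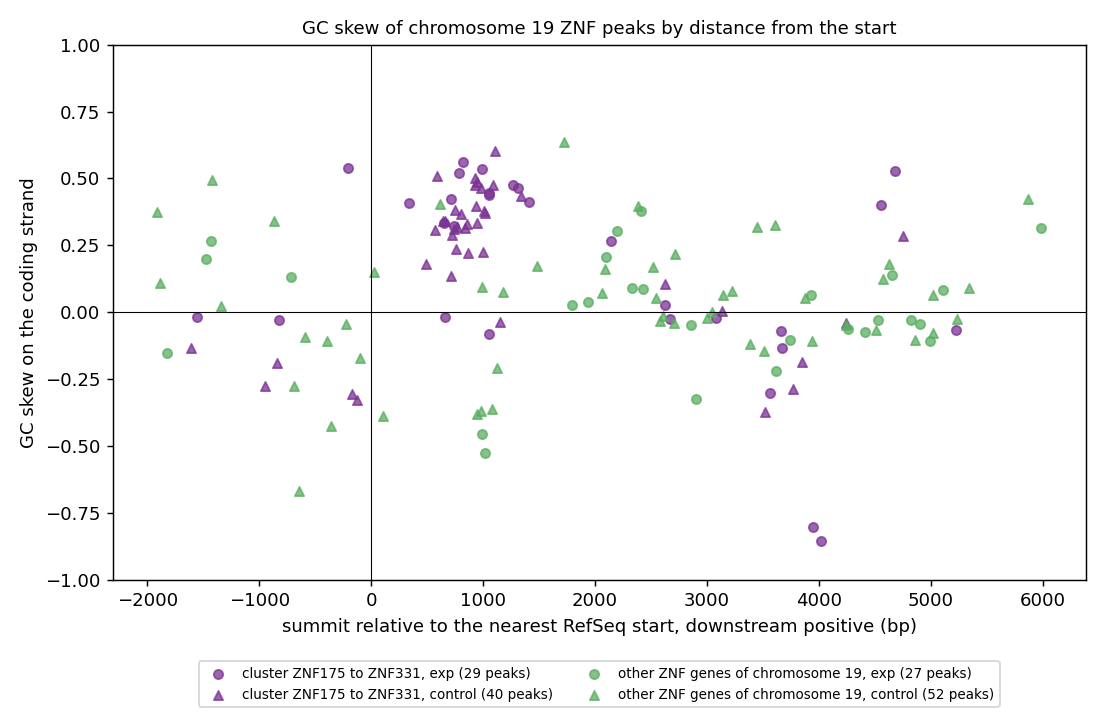
GC skew of each chromosome 19 ZNF peak on the coding strand (y axis) against the distance of its summit from the nearest RefSeq start (x axis, bp, downstream positive), for summits from 2000 bp before to 6000 bp after a start. Cluster peaks are grouped at 500 to 1250 bp with skews mostly above 0.1, while the ZNF579 peaks at about 1000 bp lie between −0.53 and −0.36.

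Of the 238 merged regions that members formed (peaks sharing at least 1 bp), 13 (5.46%) had a peak in all 4 libraries. For ZNF genes elsewhere it was 1 of 220, and for all protein-coding genes 428 of 22185 (1.93%). All 13 lie beyond 51 Mb, where peaks of other coding genes also had more input and DRIP reads per kb than before that border. Shared regions of those other genes were not counted separately, so whether the share is particular to ZNF genes was not tested. A further 20 member regions were called in 3 libraries. The missing library was exp 1 for 11 of them, exp 2 for 4, control 1 for 2 and control 2 for 3. Both exp lists are shorter over the whole genome. The same split was not counted over the 754 regions of all protein-coding genes called in 3 libraries, so whether it is particular to members was not tested. Of the 33 regions in 3 or 4 libraries, 25 were in the cluster from ZNF175 to ZNF331.

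The region just downstream of the ZNF616 start, at chr19:52138427-52139416 and classed as promoter and gene body, held 67 and 58 DRIP reads in the exp lists and 138 and 76 in the control lists. Its input reads were 21 and 18 in exp and 29 and 21 in control. Each library was counted over its own peak, so raw counts follow peak width as well as signal. The summit stood 1268 and 989 bp after the start in exp and 742 and 1010 bp in control, and the skew was 0.47 and 0.53 in exp and 0.31 and 0.38 in control.

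ZNF611 encodes a protein known to bind SVA retrotransposons. Its region at chr19:52733506-52734486 held 107 and 63 DRIP reads in exp and 90 and 93 in control. The summits were 1053 and 1055 bp after the start in exp and 1107 and 1093 bp in control. The skew was 0.45 and 0.44 in exp and 0.60 and 0.48 in control. These values describe the reference sequence under 4 overlapping peaks and are not separate measurements.

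ZNF766 (chr19:52270065-52270827) held 61 and 47 DRIP reads in exp and 81 and 61 in control, with summits at 648 and 713 bp in exp and 640 and 836 bp in control. ZNF347 (chr19:53157369-53158369) held 33 and 68 reads in exp and 85 and 73 in control. Its skew was −0.08 in exp 1, which had the fewest reads, 0.41 in exp 2 and 0.43 and 0.37 in control. At several neighbours a G-rich peak of this kind was listed in 3 libraries. ZNF808, whose loss causes pancreatic agenesis in humans, had such a peak with 59 reads in exp 2 and 112 and 109 in control, and none in exp 1. The same held for ZNF528, ZNF701 and ZNF415, with 63, 55 and 36 reads in exp 2 and 98, 74 and 108 in control 1 and 58, 90 and 66 in control 2. At ZNF765 the peak was missing in exp 2 instead, with 62 reads in exp 1 and 74 and 64 in control.

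The cluster had 4 more regions in every library, none with a summit within 2 kb downstream of a matched start. ZNF578 (chr19:52486268-52487088) held 56 and 70 DRIP reads in exp and 104 and 44 in control, about 33 kb after its start. ZNF160 (chr19:53089664-53090710) held 39 and 47 in exp and 112 and 56 in control. ZNF665 (chr19:53191850-53192931), which had no matched start, held 86 and 54 in exp and 110 and 67 in control, and ZNF816-ZNF321P, a readthrough gene whose peaks cannot be told apart from those of its parts, held 68 and 53 in exp and 149 and 73 in control at chr19:52940995-52942216. All were G-rich, with skews from 0.27 to 0.58 over these regions and libraries.

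Beyond this cluster the shared regions did not have a common composition. ZNF579 (chr19:55579497-55580325) had a peak at the same distance from its start as the cluster genes, 993 and 1014 bp in exp and 984 and 1082 bp in control. It was C-rich on the coding strand, with a skew of −0.46 and −0.53 in exp and −0.37 and −0.36 in control. It held 67 and 47 DRIP reads in exp and 107 and 84 in control. A terminator region of the same gene (chr19:55575414-55576484) held 66 and 41 reads in exp and 33 and 46 in control. ZNF584 (chr19:58413108-58413977) had a −log10 q of at least 4.97 in each library, and its gene-body peak held 50 and 70 reads in exp and 72 and 90 in control with a skew near 0 (−0.03 and −0.11 in exp, −0.08 and −0.10 in control). ZNF628 (chr19:55477775-55480192) held 45 and 74 reads in exp and 221 and 48 in control, and ZNF837 (chr19:58376428-58377819) held 54 and 70 in exp and 42 and 81 in control, with overlapping groups in both.

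The read counts of shared regions were compared where every library had exactly 1 peak, in 1370 regions over the genome. Of these, 14 held a member, the 13 above and a further region at chr19:55574131-55574907 near the end of ZNF579 that some libraries assign to another gene. edgeR's quasi-likelihood test, with each library's peak width as an offset, called 0 of the 1370 regions at an adjusted p under 0.05 (0% called), and so 0 of the 14. At an unadjusted p under 0.05 it had 96 regions, 0 of them members, and DESeq2 also called 0 regions and had 21 at that unadjusted p. The log2 fold change was above 0 in 6 members and below 0 in 8, with a median of −0.02, against 0.01 over all 1370. This balance moved with the setting: 8 were above 0 without exp 1 (median 0.04), and the median was −0.12 without control 1. Under a stricter rule on how much of each peak is shared, 2 members were left, both below 0 (median −0.33). The lowest unadjusted p among members belonged to ZNF766, with 80.3 and 97.0 scaled DRIP reads per kb in exp and 107.5 and 129.8 in control. Its log2 fold change was −0.42 ± 0.25 (SE, adjusted p = 0.793 by edgeR), and the groups did not overlap. ZNF665 had 102.9 and 131.9 in exp and 84.3 and 98.8 in control, also without overlap, with a log2 fold change of 0.34 ± 0.24 (SE, edgeR adjusted p = 0.859). ZNF611 had 110.0 and 98.5 in exp and 120.8 and 132.0 in control (−0.27 ± 0.23, SE, edgeR adjusted p = 0.954). Groups without overlap were also seen in ZNF611, ZNF578, ZNF584, ZNF816-ZNF321P and the ZNF579 region at chr19:55574131-55574907, in both directions. With 2 libraries against 2, such separation has an exact permutation p of 0.33. Its share over the 1370 regions was not counted. The median standard error over the members was 0.245 on the log2 scale.

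**Figure D4:**
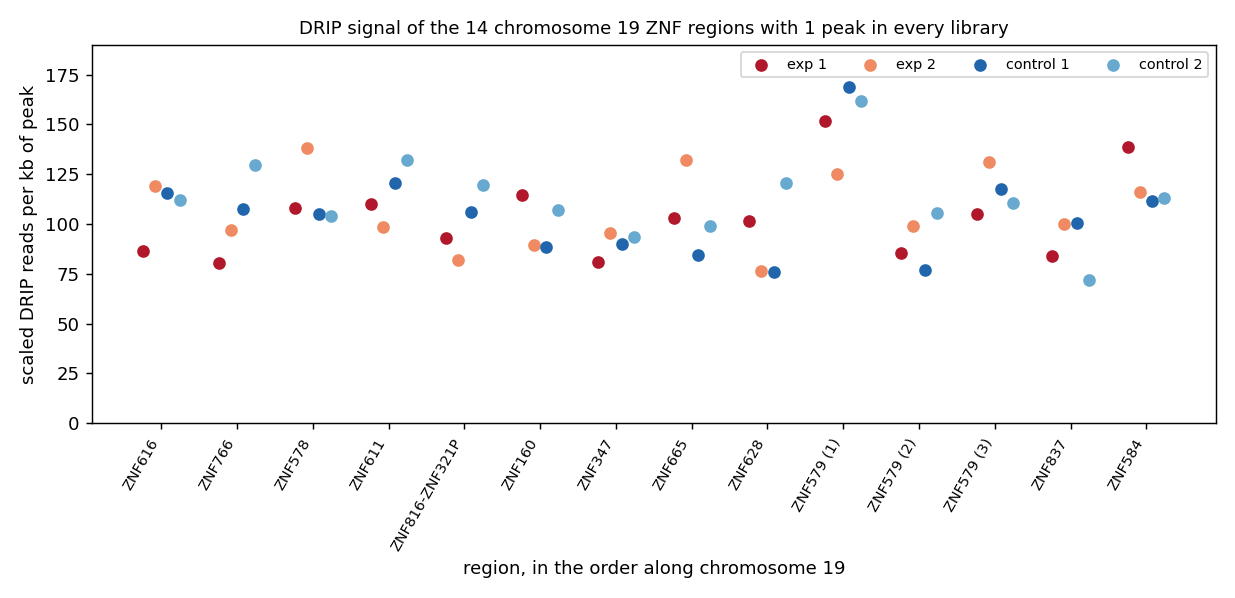
DRIP reads per kb of peak, scaled by the width-adjusted TMM factors (y axis), for the 14 chromosome 19 ZNF regions with exactly 1 peak in every library (x axis, in chromosomal order, ZNF579 numbered), 1 point per library. Values run from 71.9 to 168.6, and no region passes the adjusted threshold.

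Genes were also compared by the libraries that listed them. Of the 103 genes, 22 had a peak in all 4 libraries (21.4%), against 12.2% of the 8732 protein-coding genes with a peak anywhere. For ZNF genes of other chromosomes it was 7 of 110 (6.36%). Of the 22, 16 were in the cluster from ZNF175 to ZNF331, and 10 had no single region that was called in all 4. All of the 22 except ZNF114 and ZNF574 lie beyond 51 Mb. Other coding genes there were not counted by pattern, so whether the share of 21.4% is particular to ZNF genes was not tested. Only 1 member was exp-only, with a peak in both exp libraries and neither control (0.971%), against 1.29% of all coding genes. It was ZNF552, with 64 and 46 DRIP reads in 2 overlapping gene-body peaks. Control-only genes numbered 5 (4.85%), against 8.86% of all coding genes. A peak in just 1 library was found for 45 genes (43.7%), against 45.1% of all coding genes, with 9 and 7 of the 45 from exp and 15 and 14 from control.

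The 5 control-only genes were ZNF525, ZNF71, ZNF274, ZNF667 and ZNF791. ZNF525, in the cluster from ZNF175 to ZNF331, had 1 G-rich peak 982 and 862 bp after its start with 65 reads in control 1 and 73 in control 2. ZNF274, whose protein is known to recruit SETDB1 to the 3′ ends of other zinc finger genes, had a C-rich promoter peak with 82 reads (skew −0.43) in control 1 and 49 (−0.39) in control 2. ZNF71 had 160 and 60 reads in overlapping promoter peaks of control 1 and control 2. ZNF667 had 85 and 28 reads in an overlapping gene-body peak, and ZNF791 had 24 and 46 reads in peaks that did not overlap. Absence from a list says that no peak passed the caller there, and the reads of the exp libraries over these positions are not in the lists.

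Peaks per gene were uneven. ZNF611 had the most, 19 over the 4 lists, followed by ZNF83 with 13, ZNF579 with 12 and ZNF331 and ZNF600 with 11 each. These 5 genes held 66 of the 361 peaks, while 42 genes had 1 peak in all. ZNF331 is an imprinted gene at the distal edge of the cluster. Its gene-body region at chr19:53558577-53560240 held 153 and 129 DRIP reads in exp with a skew of −0.80 and −0.86, and 54 reads with a skew of −0.38 in control 1, where the peak was narrower. Control 2 had no peak there. The other ZNF331 peaks had skews from −0.19 to 0.12. In ZNF83 only 1 of its regions was seen in 3 libraries, with 35 reads in exp 1 and 79 and 67 in control. ZNF600 had its region at chr19:52783567-52784255 in exp 1 (51 reads) and in both controls (38 and 54 reads). Its promoter region at chr19:52787872-52788645 was listed in exp 2 (41 reads) and in both controls (66 and 44 reads), but not in exp 1.

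Among genes with a promoter peak in 3 or more libraries, the 6 with the highest −log10 q were ZNF616, ZNF579, ZNF444, ZNF611, ZNF701 and ZNF28. ZNF444 carries a SCAN domain, and the regions of ZNF616, ZNF579, ZNF611 and ZNF701 are those given above. ZNF28 had its promoter region at chr19:52819980-52821160 with 35 reads in exp 2, 101 in control 1, 92 in control 2 and no peak in exp 1. At ZNF444 the exp libraries shared a region at chr19:56139542-56140101 with 40 and 60 reads. Control 1 had its promoter peak at chr19:56140720-56141201 with 77 reads, about 1 kb nearer to the start (summits at −1431 and −1472 bp in exp and −397 bp in control 1). Over all members, promoter classes covered 20.6% and 27.7% of peaks in exp and 37% and 25% in control.

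On other chromosomes ZNF512B was the only ZNF gene with a region in all 4 libraries. Its G-rich promoter peak on chromosome 20, at chr20:63970470-63971526, held 76 and 41 DRIP reads in exp and 96 and 73 in control. Of 27 genes that act with KRAB zinc finger proteins, such as TRIM28, SETDB1, the HP1 proteins and DNA methyltransferases, 9 and 3 had a peak in exp and 9 and 10 in control. The exp libraries also listed fewer protein-coding genes in all, 3743 and 3011 against 5141 and 5234 in control. TRIM28, the corepressor itself, lies at the distal end of the same chromosome arm. Its promoter peak of 3 to 4 kb (chr19:58539017-58542812) held 222 and 181 DRIP reads in exp and 394 and 265 in control, over 40 and 37 input reads in exp and 41 and 42 in control. It was strongly C-rich, with a skew of −0.62 in exp 1 and exp 2 and −0.61 in control 1 and control 2. The histone deacetylase HDAC1 had 1 and 1 gene-body peaks in exp and 3 and 3 in control, the methyltransferase EHMT1 1 and 0 in exp and 1 and 4 in control, and ATF7IP, the partner of SETDB1, 1 and 0 in exp and 0 and 3 in control.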

How the data were processed

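DRIP-seq peak lists of 4 PC-9 libraries (2 exp, 2 control) were used, 1 list per library. Per the submitters' processing notes, FastQC, cutadapt, Bowtie2, MACS2 and DiffBind were used with GRCh38 (hg38); neither versions nor settings could be read from them. Per the file headers, each peak has an assigned gene, a location class and raw read counts of its own DRIP library and of the input library. The fold enrichment ratio and the −log10 p and q were deposited by the authors; the headers name another multiplier, but the lowest p entry was 3.00 in every list, so they were read as −log10. The authors' skew score of each peak, as deposited, follows the reference strand: against RefSeq promoter windows r was 0.926 over 22 peaks at plus-strand genes and −0.950 over 35 at minus-strand genes. It was turned to the gene's strand. Library amplification used PCR without molecular identifiers, so counts carry more than counting error.

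Peaks were merged at 1 bp of overlap. Genes were matched by symbol to RefSeq GRCh38.p14 (103 of 103, 101 of them in its protein-coding set). Library values were compared by exact two-sided permutation, and chromosome 19 with other chromosomes by sign flips over libraries. Counts of 1370 regions were tested with edgeR 4.0.16 (DESeq2 1.42.0 as alternative), with peak width as an offset, TMM factors from width-scaled counts and Benjamini-Hochberg adjustment over all regions, and tested on simulated data. The members and lists were chosen with earlier results of these data known. Named genes followed a rule: those with a region in all 4 libraries, exp-only, control-only, the 6 of highest −log10 q with promoter peaks in 3 or more libraries, the 5 with most peaks, and up to 4 partners and 4 genes elsewhere. ZNF808, ZNF528, ZNF765 and ZNF415 were also described for their downstream summits, chosen after their values were seen. So were the 51 Mb border, the clusters, the 2 kb window, the range of 500 to 1250 bp and the words searched.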

Additional observations from a re-analysis of the deposited data

How the results depend on the processing

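For 14 results, 116 alternative values were computed, and 98 kept their direction or stayed within 1.5 times. Results on the 2 kb window, the 51 Mb border, the cluster share and the ratio to ZNF peaks elsewhere were added after seeing the data. The exp over control ratio of member peaks per ZNF peak elsewhere turned to 0.848 with equal peak numbers, and the share of coding genes with a peak that belong to the cluster from ZNF175 to ZNF331, at 1.32 times the control's (exact permutation p = 0.33), turned to 0.966. Leaving out 1 library gave 0.887 to 1.16 for the ratio to ZNF peaks elsewhere (0.887 without control 1 and 0.977 without exp 2), 0.801 to 1.08 for the share of all peaks (1.08 without control 2), and −0.0107 (without exp 2) to 0.0388 for the skew difference. The causes were not tested. Genes in all 4 libraries fell to 12 if 1 merged region had to be shared. Exp-only genes numbered 0 at −log10 q of at least 2 and 2 by RefSeq overlap, which gave 8 control-only genes. With 1 library fewer these patterns ask for fewer lists, and genes in every list numbered 22 to 31. Exp-only genes were then 8 without exp 1, 10 without exp 2, 3 without control 1 and 1 without control 2, and control-only genes were 12, 14, 19 and 20 in the same order. Regions called by edgeR stayed at 0 with the replicate number as a block and ranged from 0 to 3 on leaving out 1 library (3 without exp 1), with 0 members called in each. Such a fit leaves 1 library in a group, which is assumed to vary like those of the other group. Same-numbered libraries did not deviate together (r = −0.069 over 1370 regions), so the numbers were not taken as pairs. Reads per peak limit the rest: member peaks held a median of 44 and 44 DRIP reads in exp and 57.5 and 46.5 in control.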

Other observations

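Other families of the same chromosome were read from lists chosen with earlier results known. Of 9 NLRP genes, all beyond 51 Mb, which encode inflammasome and reproductive proteins, 8 and 6 had a peak in exp and 8 and 8 in control. Of 15 KLK genes for kallikrein proteases, 6 of them beyond 51 Mb, 8 and 9 had one in exp and 12 and 9 in control. Of 11 LILR genes for leukocyte receptors, 10 of them beyond 51 Mb, 2 and 2 had one in exp and 2 and 1 in control. Peaks assigned to 7 ZNF-named antisense genes on chromosome 19 numbered 2 and 2 in exp and 5 and 6 in control. ZNF528-AS1 was the only one of the 7 with a peak in every library, with 77 and 44 DRIP reads in its overlapping promoter peaks in exp and 126 and 88 in control. The deposited lists do not say whether strand was used, so a peak of a gene and of its antisense partner cannot be told apart.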
